A study of Rattus norvegicus with 2 samples.

Results

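Kruppel-like factors (Klf genes) were measured in rat neonatal heart cell cultures after inhibition of the microRNA families miR-99/100 and let-7. The 10 genes described, Klf2, Klf3, Klf4, Klf5, Klf6, Klf7, Klf9, Klf10, Klf13 and Klf15, were taken from the 16846 gene symbols of the table as a named list. The list was selected on measured values of these same libraries, which of them is not recorded, so levels and ratios alike are given as a description. Another 5 Klf genes in the table, Klf1, Klf11, Klf12, Klf14 and Klf16, stand beside them as remaining family members, together with 8 Sp genes. Strand-specific poly(A) RNA-seq gave 1 library per group. The anti-miR library came from cultures transduced for 7 days with adeno-associated virus (AAV2/9) carrying short hairpin RNAs against miR-99/100 and Let-7a/c. The control library came from cultures given an empty AAV by the treatment tag, or mock-transduced by the protocol. Both were prepared from ventricles of rats at postnatal day 0 by trypsin digestion and 2 h of pre-plating, and the labels call the cells cardiomyocytes of over 90% purity.

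With 1 library per group no spread between cultures can be measured, so no difference has a replicate check and each one describes these libraries. The anti-miR library held 14815846 reads on genes and the control library 16031780. Levels are in RPM (a gene's reads per 1000000 reads summed over genes), and levels of different genes are set in order only as RPM per kb of the transcript counted. Each ratio of anti-miR over control carries an exact (Clopper-Pearson) 95% interval that covers counting error only. The log2 ratios are of RPM + 0.1, and so the differences of genes at low level are understated. Defining cardiomyocyte transcripts were scarce against the label: the 10 cardiomyocyte markers summed to 279 RPM in the anti-miR and 241 RPM in the control library, and Tnnt2, with the most reads, had 161 and 147 RPM. Myh6, Myl3, Ryr2 and Tnni3 had 23, 19, 20 and 5 reads in the anti-miR library and 0 in the control. Of 6 cardiomyocyte markers above a mean of 1 RPM, 2 were at least 1.5-fold higher, Myh7 (171 and 99 reads in the anti-miR and the control library) and Nppa (139 and 91). Lower was 1, Myl2 (5 and 30 reads), which passed through its control reads alone. Of all genes above that mean, 10.8% were at least 1.5-fold higher and 8.56% lower. The 7 fibroblast markers summed to 82292 and 81253 RPM, and the 7 macrophage markers to 2973 and 3282 RPM, in the anti-miR and the control library.

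Kruppel-like factors are transcription factors with a conserved set of C-terminal zinc fingers that bind CACCC and other GC-rich elements. By their other domains they are commonly placed in subgroups. Klf3, Klf8 and Klf12 recruit the corepressor CtBP. Klf1, Klf2, Klf4, Klf5, Klf6 and Klf7 act largely as activators, Klf4 and others also as repressors. Klf9, Klf10, Klf11, Klf13, Klf14 and Klf16 bind the corepressor Sin3A, and Klf15 stands outside these subgroups. Several members are induced within minutes by serum, shear stress or TGF-beta, and in the heart Klf15 is known as a brake on hypertrophy and a regulator of metabolism, and Klf5 in fibroblasts as an activator of growth factor genes.

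Members of the microRNA families targeted in the cultures are shown because these families define the groups, with the seed (bases 2 to 8) in capitals. No miR-99a sequence was at hand, so miR-99b is shown. Sequences are those of RefSeq, build GRCr8. The let-7 pair shares the seed GAGGUAG and the miR-99/100 pair the seed ACCCGUA.
rno-let-7a-5p: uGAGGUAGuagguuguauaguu
rno-let-7c-5p: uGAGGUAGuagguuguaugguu
rno-miR-100-5p: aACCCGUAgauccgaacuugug
rno-miR-99b-5p: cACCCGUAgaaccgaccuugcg

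Of the 10 members, 7 had promoters in the RefSeq table (300 bases, 250 before and 50 after the annotated start), and these 7 were searched on both strands for 8 motifs. Upstream sequences of Klf3 and Klf6 are shown because these are abundant members whose levels differed in opposite directions. Capitals mark CACCC (or GGGTG, its reverse complement) and the CArG box of the serum response factor. The Klf3 sequence is chr14:43850827-43851076 and the Klf6 sequence chr17:69458479-69458728, both on the minus strand of GRCr8.
Klf3: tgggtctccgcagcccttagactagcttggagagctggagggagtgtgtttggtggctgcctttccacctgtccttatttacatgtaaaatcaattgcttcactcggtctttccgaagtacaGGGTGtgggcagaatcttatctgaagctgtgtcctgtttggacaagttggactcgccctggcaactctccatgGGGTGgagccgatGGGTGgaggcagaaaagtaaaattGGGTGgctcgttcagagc
Klf6: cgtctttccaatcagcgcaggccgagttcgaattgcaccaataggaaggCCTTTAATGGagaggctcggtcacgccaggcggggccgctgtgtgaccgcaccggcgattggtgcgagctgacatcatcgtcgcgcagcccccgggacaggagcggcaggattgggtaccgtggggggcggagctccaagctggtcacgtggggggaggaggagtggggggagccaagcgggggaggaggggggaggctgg
The Klf3 window held 4 CACCC matches and the Klf6 window none, and Klf6 held 1 CArG box. CACCC was found in 5 of the 7 Klf promoters (Klf3, Klf5, Klf7, Klf9 and Klf15), against 55.1% of all 27457 promoters. The CArG box was found in 1 of 7, against 1.64% of all. GGGCGG, the GC box, was in 3 of 7 (34.9% of all), CCAAT in 5 of 7 (37.7%) and CACGTG, the E-box, in 2 of 7 (6.65%). No match was found for TGACGTCA (1.91% of all), for the glucocorticoid response element (0.00728%) or for the MEF2 element (3.37%). The Klf4 window held none of the 8 motifs. Its annotated start may lie inside the 5′ UTR, so that window may not be a promoter. The windows rest on the annotated starts, and a match is a description of letters only.

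Klf transcripts as a sum were lower in the anti-miR library, and Klf4 and Klf6 had the largest drops in RPM. The 10 members summed to 693 RPM in the anti-miR library and 825 RPM in the control, a ratio of 0.840 (0.819 to 0.862). Without Klf6 the sums were 355 and 410 RPM. Without Klf6 and Klf4 they were 265.5 and 265.3 RPM, a ratio of 1.0004 (0.958 to 1.04). Klf6 and Klf4 were left out with their values known. The rest held differences that offset each other: by counting interval Klf2, Klf5 and Klf9 were lower and Klf3 and Klf7 higher. Among the members 7 were lower and 3 higher at any size, while of all 10365 genes averaging 1 RPM or more 46.7% were lower and 53.3% higher. The median log2 ratio of the members was −0.22, against 0.03 for all genes above that floor. At least 1.5-fold lower were 2 members, Klf4 and Klf5, where 8.56% of all genes were, and 0 members were at least 1.5-fold higher, where 10.8% of all genes were. At least 2-fold lower was 1 member, Klf5 (3.56% of all genes), and 0 were 2-fold higher (4.85%). Nothing is read from these counts, since the members were chosen with the values known. All 10 passed the floor, Klf5 through its control reads alone. The counting interval excluded 1 for 7 members, 5 of them lower (Klf2, Klf4, Klf5, Klf6, Klf9) and 2 higher (Klf3, Klf7), and included it for Klf10, Klf13 and Klf15. An exact binomial test on the reads, which compares these libraries and not the conditions, called the same numbers of members, 5 lower (26.4% of all genes) and 2 higher (31.7%).

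**Figure D1:**
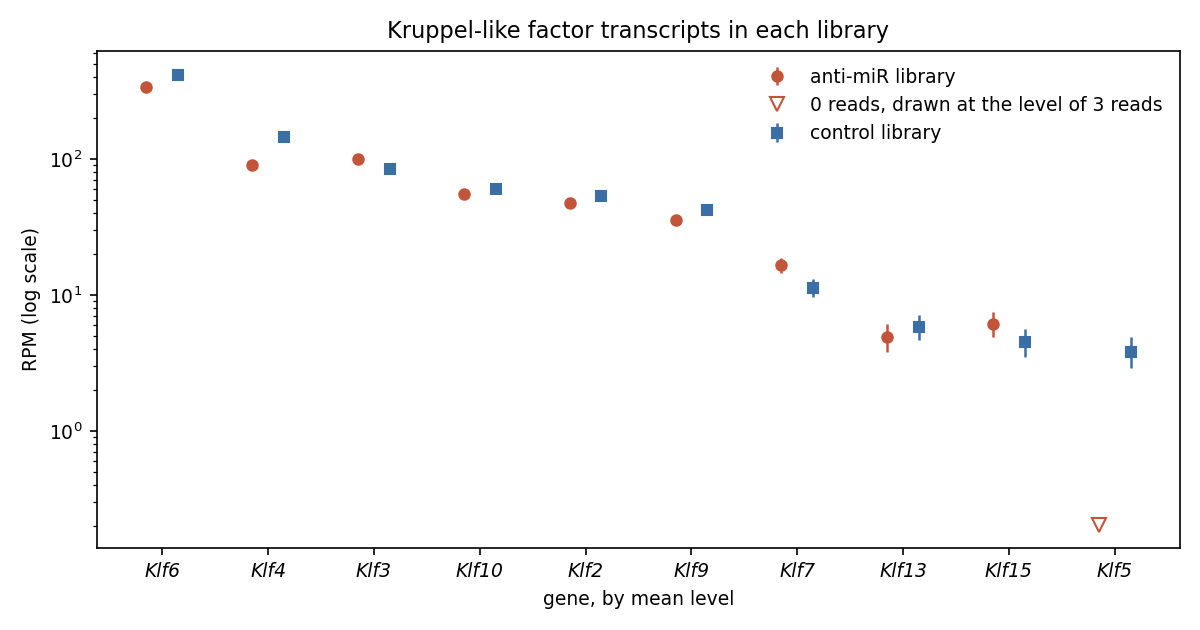
Levels of the 10 genes in each library in RPM on a log axis, with the anti-miR library (circles) left of the control library (squares); bars are exact 95% Poisson intervals of the read count. Klf6 was highest in both libraries, at 338 and 415 RPM, and Klf5 had 0 reads in the anti-miR library, where its 2-sided interval ends at 0.249 RPM, above the 1-sided limit of 3 reads, 0.202 RPM.

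Klf4 showed the clearest difference among the well-covered members. Klf4 (chromosome 5, 73446928 to 73451286, build rn4) is an inhibitor of proliferation in many cell types, a reprogramming factor and a switch of smooth muscle and macrophage states. It had 1330 reads, or 89.8 RPM, in the anti-miR library, against 2325 reads, or 145.0 RPM, in the control. The ratio was 0.619 (0.578 to 0.662), 1.62-fold lower. Its log2 ratio of −0.69 lay below the like-level range, the central 95% of the 500 genes closest in mean level, which was −0.47 to 0.40.

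Klf6 (chromosome 17, 75576152 to 75585147), an early response gene that activates collagen and TGF-beta receptor genes, was the most abundant Klf in both libraries. It had 338 RPM in the anti-miR library and 415 RPM in the control, from 5005 and 6648 reads. The ratio was 0.815 (0.785 to 0.845), and the log2 ratio of −0.30 lay inside its like-level range of −0.36 to 0.32. Klf2 (chromosome 16, 17941780 to 17943730), known as a shear-induced factor of endothelium and a quiescence factor of leukocytes, had 47.0 and 53.3 RPM in the anti-miR and the control library, a ratio of 0.882 (0.797 to 0.976). Its log2 ratio of −0.18 lay inside the like-level range of −0.58 to 0.57. Klf2 and Klf6 were thus lower by more than counting error, within the width that genes of their level showed between these libraries.

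Klf5 and Klf7 are the low members of the activator subgroup. Klf5 (chromosome 15, 83103177 to 83118363), a serum-inducible growth factor regulator, had 0 reads in the anti-miR library and 61 reads, or 3.81 RPM, in the control. Set against the limit of 3 reads that a count of 0 allows (0.202 RPM in the anti-miR library), it was at least 18.8-fold lower, a bound that leaves out the counting error of the 61 control reads. Loss of a gene of this depth was uncommon but not unique: of 445 genes with 48 to 74 control reads, 4 had 0 reads in the anti-miR library, and their median was 59 reads. Genes with 0 anti-miR reads and at least 50 control reads numbered 4 in the table, Klf5 included, while 24 genes had the reverse pattern. Klf7 (chromosome 9, 62690536 to 62738089), studied mostly in neurons and adipocytes, was higher, with 16.6 RPM in the anti-miR library and 11.3 RPM in the control. Its ratio was 1.47 (1.21 to 1.79), and its log2 ratio of 0.55 lay inside a like-level range of −0.89 to 1.08. The 6 activator-subgroup genes in the table, Klf1 at 0 reads included, summed to 491 RPM in the anti-miR and 628 RPM in the control library, a ratio of 0.782 (0.759 to 0.806).

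The CtBP-binding genes Klf3 and Klf12 were higher in the anti-miR library, and Klf8 was not among the gene symbols. Klf3 (chromosome 14, 46203638 to 46226077), a broadly expressed repressor, had 1484 reads, or 100.2 RPM, in the anti-miR library and 1348 reads, or 84.1 RPM, in the control. The ratio was 1.19 (1.11 to 1.28), and the log2 ratio of 0.25 lay inside its like-level range of −0.42 to 0.45. Klf12 (chromosome 15, 83686143 to 84046291), a repressor of the AP-2 alpha gene, had 70 and 5 reads, 4.72 and 0.312 RPM, in the anti-miR and the control library, with a ratio of 15.1 (6.19 to 48.1). Its log2 ratio of 3.55 lay inside its wide like-level range of −2.62 to 4.55, at percentile 97.2 of those genes. Of 521 genes with 56 to 84 anti-miR reads, 14 had 5 or fewer in the control, Klf12 included, and 12 had 0. Klf12 and Klf5 lie 568 kb apart on chromosome 15 and differed in opposite directions. Klf3 and Klf12 together summed to 104.9 RPM in the anti-miR and 84.4 RPM in the control library, a ratio of 1.24 (1.15 to 1.34). Klf3 gave 1484 of the 1554 anti-miR reads in that sum.

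The Sin3A-binding subgroup differed little as a sum, while its genes differed in both directions. Klf9 (chromosome 1, 226420949 to 226446376), induced by glucocorticoid and thyroid hormone, had 35.3 RPM in the anti-miR library and 42.4 RPM in the control, a ratio of 0.833 (0.742 to 0.936). Klf10 (chromosome 7, 73821190 to 73826866), the TGF-beta-inducible early gene, had 55.5 and 60.3 RPM in the anti-miR and the control library. Its ratio of 0.921 had an interval of 0.838 to 1.01, which includes 1, and no difference was detectable with these reads. Klf13 (chromosome 1, 118368164 to 118398938), a cofactor of Gata4 in the frog heart, had 72 and 93 reads, or 4.86 and 5.80 RPM, with an interval of 0.607 to 1.15 around a ratio of 0.838. Its counted transcript was only 598 bases long. Klf16 was higher at 21.9 RPM in the anti-miR and 15.7 RPM in the control library (1.40, 1.18 to 1.66), and Klf11 stood at 10.9 and 13.2 RPM (0.827, 0.670 to 1.02). The subgroup summed to 128.6 and 137.3 RPM, a ratio of 0.937 (0.881 to 0.997).

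Klf15 (chromosome 4, 124714395 to 124726991), the antihypertrophic and metabolic member, was among the scarcest. It had 90 reads, or 6.07 RPM, in the anti-miR library and 72 reads, or 4.49 RPM, in the control, with a ratio of 1.35 (0.981 to 1.87). The interval includes 1, so no difference was detectable. In log2 terms Klf15 stood at 0.43 and Klf9 and Klf13 at −0.26 and −0.25, each inside its like-level range.

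**Figure D2:**
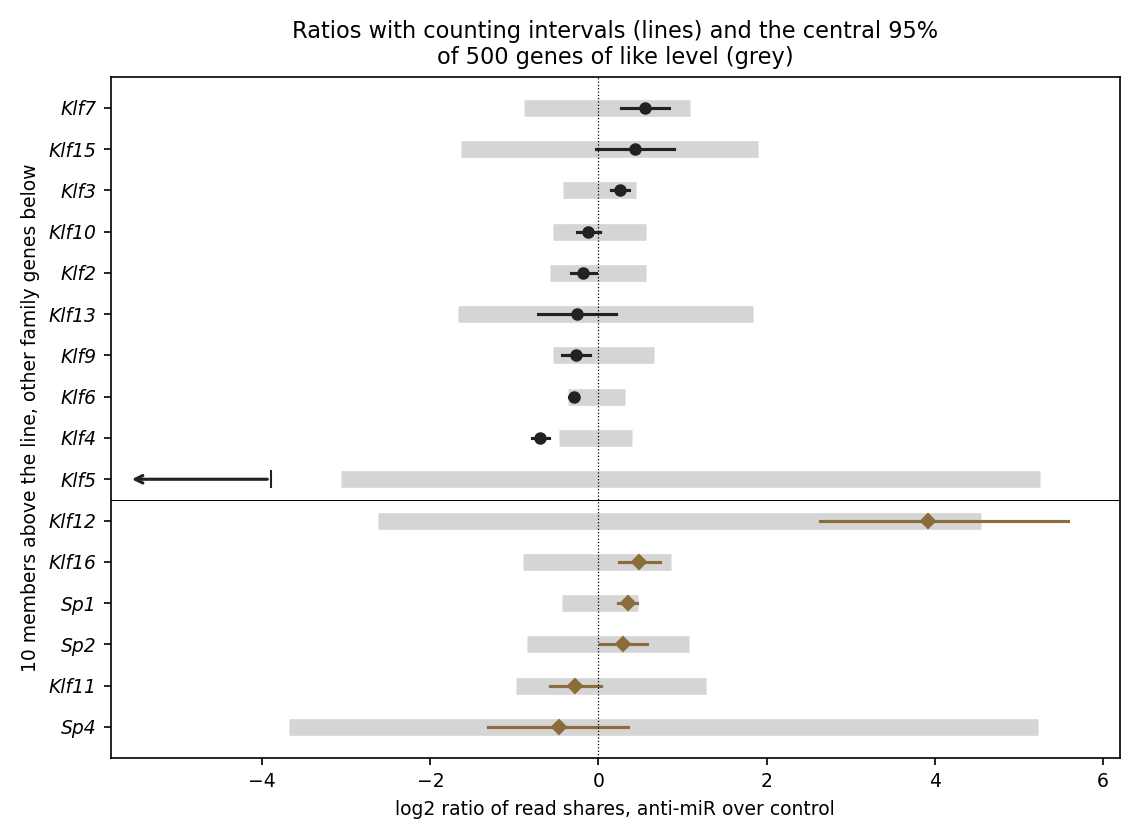
Ratios of read shares, anti-miR over control, on a log2 axis for the 10 members (circles) and 6 other family genes above 1 RPM (diamonds); lines are exact 95% counting intervals, grey bars the central 95% of log2 ratios (RPM + 0.1) of the 500 genes of nearest level, and the Klf5 arrow runs from the upper end of its counting interval. Klf4 and Klf5 are the members outside the grey bars.

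The order of the members by level per length changed at a few places. In RPM per kb, the anti-miR library ran Klf6 (80.4), Klf2 (44.7), Klf4 (38.0), Klf3 (20.1), Klf10 (18.9), Klf9 (13.5), Klf13 (8.13), Klf7 (5.18), Klf15 (2.48) and Klf5 (0). The control ran Klf6 (98.7), Klf4 (61.4), Klf2 (50.6), Klf10 (20.6), Klf3 (16.9), Klf9 (16.2), Klf13 (9.70), Klf7 (3.52), Klf15 (1.83) and Klf5 (1.18). Klf4 stood below Klf2 in the anti-miR library and above it in the control, and Klf3 stood above Klf10 in the anti-miR library and below it in the control. The counting intervals of neighbours overlapped for Klf3 and Klf10 in the anti-miR library, and for Klf3 and Klf9 and for Klf15 and Klf5 in the control. The other 6 members held the same place in both libraries.

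Ratios between members within a library do not depend on scaling between libraries. For each Klf3 read there were 0.896 Klf4 reads (0.832 to 0.966) in the anti-miR library, against 1.72 (1.61 to 1.85) in the control. Klf4 thus gave fewer reads than Klf3 in the anti-miR library and more in the control, while per kb it lay above Klf3 in both. For each Klf3 read there were 3.37 Klf6 reads (3.18 to 3.58) in the anti-miR library, against 4.93 (4.65 to 5.23) in the control. Klf3 itself was higher in RPM in the anti-miR library, which makes ratios against Klf3 fall further. Klf4 was also lower against Klf6, with 0.266 reads per Klf6 read (0.250 to 0.282) in the anti-miR library and 0.350 (0.333 to 0.367) in the control. Per Klf2 read there were 1.91 Klf4 reads in the anti-miR library and 2.72 in the control. Per Klf10 read there were 1.62 and 2.41. Of all reads on the 10 members, Klf6 took 48.7% in the anti-miR library and 50.3% in the control, Klf4 took 13.0% and 17.6%, and Klf3 took 14.5% and 10.2%.

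**Figure D3:**
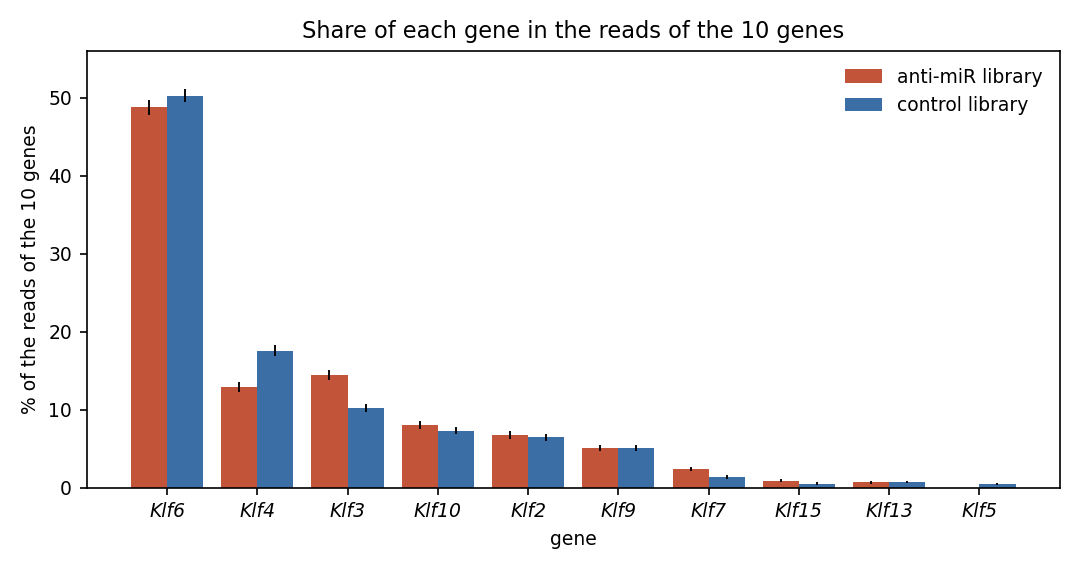
Share of each gene in the reads of the 10 genes, in percent, with the anti-miR library left of the control library; bars start at 0 and error lines are exact 95% binomial intervals. Klf4 took 13.0% in the anti-miR and 17.6% in the control library, and Klf3 took 14.5% and 10.2%.

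Among the relatives with the same DNA-binding fold, Sp1, the general GC-box activator, had 99.4 RPM in the anti-miR and 78.2 RPM in the control library, a ratio of 1.27 (1.18 to 1.37). Sp2 stood at 15.6 and 12.7 RPM and Sp4 at 22 and 33 reads. Klf1, the erythroid factor, and Sp5, Sp6, Sp7, Sp8 and Sp9 had 0 reads in both libraries, for which the limit of 3 reads is 0.202 RPM in the anti-miR and 0.187 RPM in the control library, and Klf14 had 2 and 0 reads. Of the 6 remaining family genes above the floor, 1 was at least 1.5-fold higher (Klf12, which passed the floor through its anti-miR reads alone) and 0 lower, with a median log2 ratio of 0.32. Past that fold, 10.8% of all genes were higher and 8.56% lower.

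**Figure D4:**
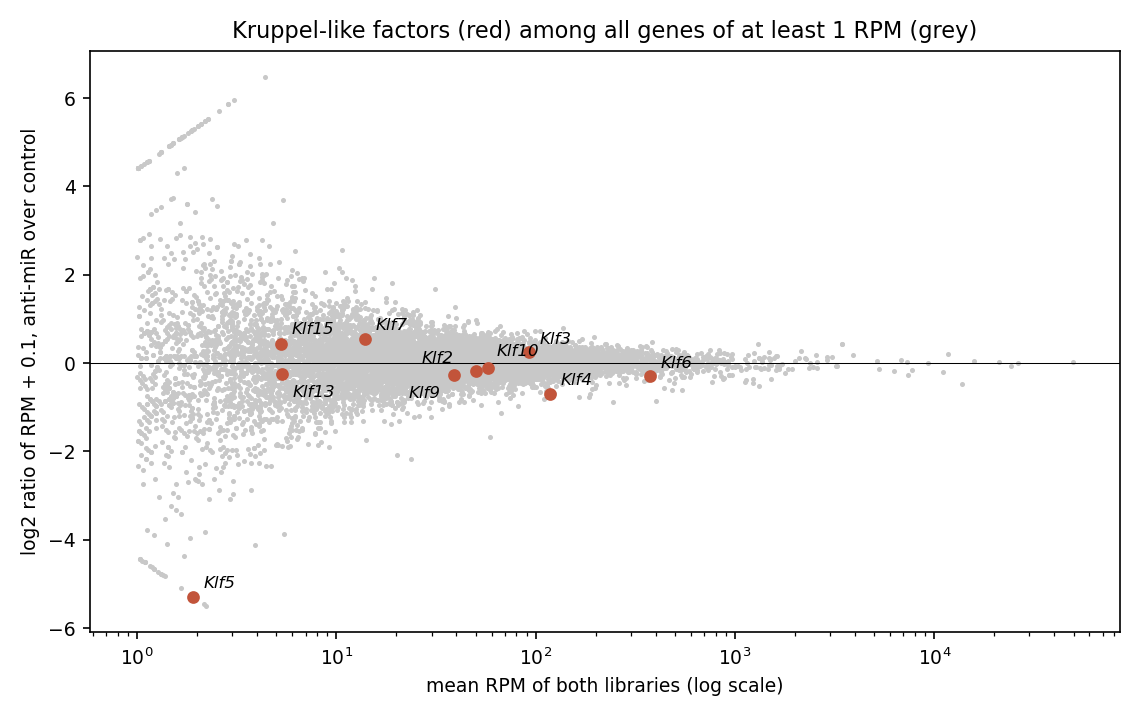
Each gene of at least 1 RPM by its mean level (log axis, RPM) and log2 ratio of RPM + 0.1, anti-miR over control; red points are the 10 Klf genes. Klf4, at −0.69, lies at the lower edge of genes of its level, and the other members above 10 RPM lie between −0.30 and 0.55.

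Known inducers of these genes were set beside all genes above the floor, of which 8.56% were at least 1.5-fold lower and 10.8% higher. The ERK5 and MEF2 arm, a kinase cascade that induces Klf2 and Klf4, had 0 of 6 genes above the floor at least 1.5-fold apart, with a median log2 ratio of −0.26. Mef2d was the only MEF2 gene among them: Mef2b fell below the floor, and Mef2a, Mef2c and Hdac7 were not among the gene symbols. In this arm the extremes were Mapk7 and Map2k5. Mapk7, which encodes ERK5, was highest at 50.8 RPM in the anti-miR and 36.9 RPM in the control library, and Map2k5, its upstream kinase, lowest at 26.3 and 38.1 RPM. Map3k3, which took the most reads, had 108.9 and 97.9 RPM. The TGF-beta arm of Klf10 likewise had 0 of 11 genes 1.5-fold apart, and 9 were lower, with a median of −0.24. Tgfbr1, a receptor, was both the lowest in ratio and the gene with the most reads, at 983 RPM in the anti-miR and 1292 RPM in the control library, and Tgfbr2 was highest at 197 and 171 RPM. The Tgfbr1 log2 ratio of −0.395 lay just below its like-level range of −0.383 to 0.302.

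Glucocorticoid-induced genes, the class to which Klf9 belongs, had a median of −0.02 over 10 genes (0.01 with no floor beyond 1 read or with one of 10 RPM), with 1 at least 1.5-fold higher and 1 lower. These were the metallothionein genes Mt2A, with 57 and 0 reads in the anti-miR and the control library, and Mt1a, with 8 and 85 reads, each above the floor through 1 library alone. Reads of such near-identical genes are uncertain. Per1, at 58.2 RPM in the anti-miR and 86.5 RPM in the control library, was 1.49-fold lower. Its log2 ratio of −0.57 lay below its like-level range of −0.49 to 0.49. The list also holds Nr3c1, the gene of the glucocorticoid receptor itself, with a log2 ratio of 0.01. Sgk1, with the most reads, had 508 RPM in the anti-miR and 525 RPM in the control library. For this list and the next, the all-gene shares past 1.5-fold were 8.56% lower and 10.8% higher. Immediate early genes respond to serum and handling as Klf2, Klf4, Klf6 and Klf10 do. Of 19 such genes, 7 were at least 1.5-fold lower and 2 higher, with a median of −0.35. Nr4a2 was lowest at 8.50 RPM in the anti-miR and 38.7 RPM in the control library, Myc highest at 44.7 and 27.0 RPM, and Fos, with the most reads, stood at 441 and 562 RPM. The part of this shift in the Klf2, Klf4, Klf6 and Klf10 values was not tested.

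Cofactors and turnover enzymes of Klf proteins had a median of 0.03 over 12 genes, with 1 at least 1.5-fold lower and 1 higher. Of all genes above the floor, 8.56% were lower by that fold and 10.8% higher. Sin3b, Ep300, Kat2b and Fbxw7 were not among the gene symbols. The listed genes past 1.5-fold were Wwp1 and Wdr5, each outside its like-level range. Wwp1, a ubiquitin ligase reported to act on Klf2 and Klf5, was lowest, at 30.8 RPM in the anti-miR and 56.6 RPM in the control library (0.545, 0.486 to 0.611). Wdr5 was highest at 64.4 and 41.3 RPM, and the corepressor gene Ctbp1, with the most reads, had 184 and 186 RPM.

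Few cited targets of the members passed 1.5-fold. Of all genes above the floor, 8.56% were lower by that fold and 10.8% higher, and nothing is read from counts in lists this short. The lists do not part genes that a factor induces from genes it represses, so their medians say nothing of target output. For Klf2 and Klf4, 11 genes passed the floor, of which 2 were lower by 1.5-fold or more and 2 higher, with a median of 0.18. S1pr1, a lipid receptor of lymphocytes and endothelium, was lowest at 17.8 RPM in the anti-miR and 41.5 RPM in the control library (0.429, 0.371 to 0.495). The other lower gene was Thbd, encoding thrombomodulin, at 34.5 and 62.0 RPM. Ccnb1, a mitotic cyclin gene, was highest at 14.7 and 6.67 RPM, followed by Tek at 7.69 and 3.49 RPM, and Tagln, with the most reads, stood at 909 and 901 RPM. Nos3 and Sele had 0 reads in both libraries. For Klf15, 1 of 8 genes was lower, Prodh, at 8 and 24 reads, which passed the floor through its control reads, and 0 were higher. Gpt was highest at 55 and 45 reads, and Ctgf, with the most reads, had 5026 and 5523 RPM. The median was −0.26, against −0.14 with no floor beyond 1 read or with a floor of 10 RPM. For Klf5, Klf6 and Klf10, 2 of 10 genes were lower and 0 higher, with a median of −0.29, which turned to 0.03 with no floor beyond 1 read. The lower genes were Mmp9, at 9 and 165 reads in the anti-miR and the control library and above the floor through the control alone, and Atf3 at 54.7 and 94.0 RPM. Igf1 was highest at 372 and 305 RPM, and the collagen gene Col1a1, with the most reads, had a log2 ratio of 0.03.

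**Figure D5:**
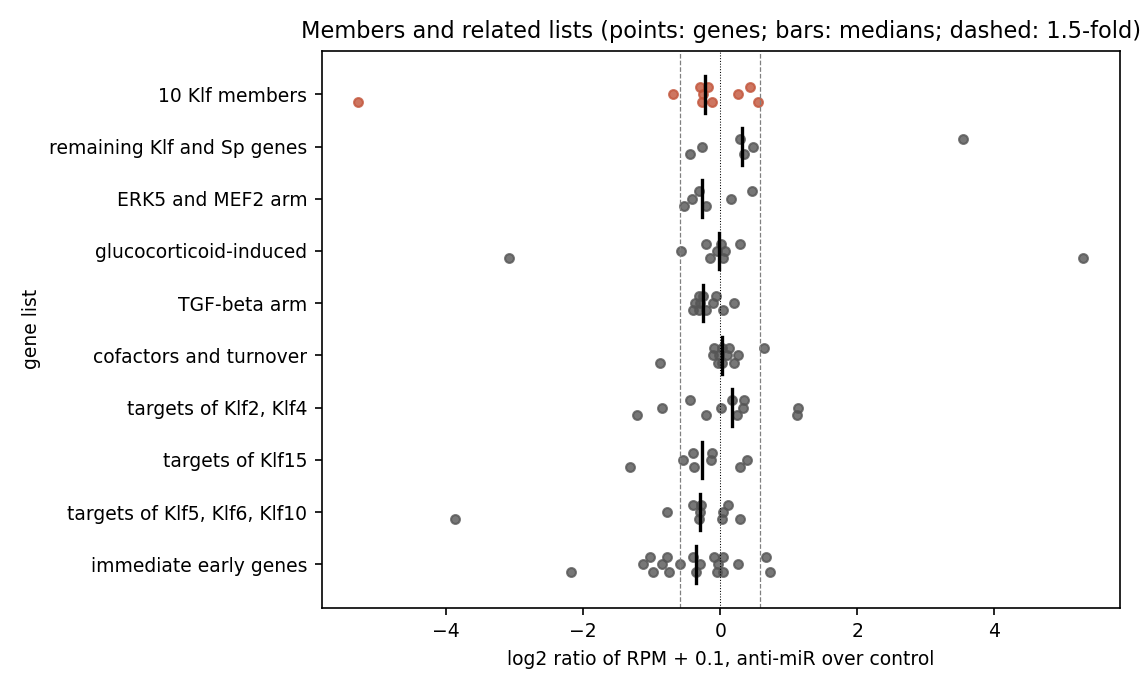
Log2 ratios of RPM + 0.1, anti-miR over control, of the 10 Klf members (red) and of genes above 1 RPM on the related lists (grey); black bars are medians and dashed lines mark 1.5-fold. Immediate early genes had a median of −0.35 and the remaining Klf and Sp genes one of 0.32.

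Markers of cell types that carry Klf2 and Klf4 moved unequally. The 9 endothelial markers in the table summed to 87.8 RPM in the anti-miR and 57.8 RPM in the control library. Of 6 above the floor, 3 (Flt1, Pecam1, Tek) were at least 1.5-fold higher (10.8% of all genes) and 1 (Vwf) lower (8.56%). Pecam1, at 50 and 0 reads, and Vwf, at 3 and 47, passed the floor through 1 library alone. Flt1 had the most reads, at 44.9 RPM in the anti-miR and 24.7 RPM in the control library. Emcn and Nos3 were at 0 in both libraries. The macrophage markers had a median log2 ratio of −0.15 with 0 of 7 genes 1.5-fold apart, C1qa being lowest at −0.57 and Cd14 highest at 0.31. C1qa lay below its like-level range of −0.35 to 0.31, as did Aif1, at −0.42 against −0.31 to 0.36. The other macrophage markers lay inside theirs. Cd68, with the most reads, had 763 RPM in the anti-miR and 940 RPM in the control library. The fibroblast markers had a median of 0.03, with Dcn highest at 0.56 and Ddr2 lowest at −0.19. The cardiomyocyte markers had a median of 0.24, or 0.80 with no floor beyond 1 read. The 3 smooth muscle markers summed to 975 RPM in the anti-miR and 967 RPM in the control library, with Myh11 highest at 0.06 and Cnn1 lowest at −0.24. Fewer cells of a type and less RNA per cell cannot be told apart in such bulk libraries, and the part of these markers in the Klf differences was not tested.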

How the data were processed

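Reads over exons of rn4 RefSeq transcripts were counted by HOMER (analyzeRepeats, opposite strand, 1 transcript per gene), per the file headers. CASAVA 1.8.2, STAR 2.2.0c and HOMER are named per the submitters' processing notes without a role, and how reads shared by paralogs were assigned is not stated in these sources. The authors deposited a scaled read signal whose columns sum to 15423812 (anti-miR) and 15423813 (control). Whole reads were recovered from it by the value of 1 read, 1.04 and 0.962; for values of at most 400 reads, 100% came out whole in both columns (tolerance 0.005).

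The members and lists were chosen with earlier results of these data known. Text names every member, the remaining Klf and Sp genes, and each list's highest and lowest ratio and the gene with the most reads (RPM, not per length); other genes were picked after their values were seen. Genes of at least 1 RPM mean were kept (10365), and 1.5-fold was the rule for a call. The 16847 rows held 16846 symbols; 1 repeated symbol, at 0 throughout, was kept once. Member accessions matched RefSeq for 9 of 10. Scripts (Python 3.11.15, numpy 2.4.6, scipy 1.17.1) were tested on simulated data. No p-value across cultures can be given. An exact binomial test on recovered reads, added after the data were seen and Benjamini-Hochberg adjusted at 0.05, compares these libraries and not the conditions: it called 2736 genes lower (26.4%) and 3282 higher (31.7%), among them 5 and 2 Klf members. Values of some list genes are not reported here.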

Additional observations from a re-analysis of the deposited data

How the results depend on the processing

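The number of lower members, 7, was the same with a pseudocount of 0.5 or 1 RPM and under median-of-ratios and TMM scaling, which shifted the members' log2 ratios by −0.02, Klf5 excepted. The median log2 ratio of the members ranged from −0.24 to −0.18 over all alternatives run. Of the members at least 1.5-fold lower, 1 was left with a floor of 10 RPM, with a fold rule of 2 or without Klf5, and the binomial test on reads called 5 lower. With a fold rule set below 1.5, as planned, 2 members were higher (Klf7 and Klf15), where 21.7% of all genes were. At that rule 2 members were lower (Klf4 and Klf5), where 17.6% of all genes were. The counting interval of Klf15 includes 1, so its place among the higher members is not a detectable difference. On the lists of inducers, cofactors, targets and immediate early genes (remaining family and marker lists not counted), 13 genes were lower and 6 higher; the higher count was 12 with no floor beyond 1 read and 3 with a floor of 10 RPM. The Klf5 log2 ratio, −5.29, depends on the pseudocount, at −3.11 with 0.5 and −2.26 with 1 RPM. Klf4 and Klf5 lay outside their like-level ranges with 200 or 1000 neighbours too. Depth limits Klf5, Klf13 and Klf15, all under 100 reads in each library. No paired analysis was possible because there is 1 library per group.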
